A study of Mus musculus with 4 samples.

Results

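Semaphorins, plexins and neuropilins form a ligand and receptor family of axon guidance. Members were all genes whose single symbol in the array's probe annotation begins with Sema and a digit or with Plxn, or is Nrp1 or Nrp2. This gave 31 of the 19938 genes with a named probe set, through 33 probe sets: 20 semaphorins, 9 plexins and 2 neuropilins. Fetal brain of C57BL/6J mice was collected on embryonic day 18 in 4 groups of 1 Affymetrix array each: hippocampus after maternal ethanol, hippocampus after maternal phosphate-buffered saline (PBS), forebrain after ethanol and forebrain after PBS. Pregnant dams were given ethanol (2.9 g per kg per day, as a 15% v/v solution) or PBS into the stomach on 5 days, embryonic days 8 to 12, so dams of every group were dosed by the same route. Litters, the sex of the embryos and any pooling of RNA are not stated in the labels, so a difference between litters or hybridizations cannot be told apart from treatment or tissue. With 1 array a group, a difference between 2 arrays has no replicate check and no p-value.

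Semaphorins are secreted (class 3 in vertebrates) or held at the cell surface (classes 4 to 7), and steer growing axons by repelling or attracting the growth cone. Plexins are the signalling receptors, and their cytoplasmic part acts on small GTPases. Most class 3 semaphorins reach plexins through a neuropilin, which binds the ligand and has little signalling function of its own. In the hippocampus of mice this system is known for sorting and pruning mossy fibres, and in the cortex for guiding callosal and corticofugal axons and migrating interneurons.

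The 4 promoters shown here belong to the members around which the array differences turn, Nrp2, Nrp1, Plxnc1 and Sema3c. They are printed 5′ to 3′ from RefSeq, build GRCm38.p6, in windows of 300 bases that span the annotated start, in lower case with each GGGCGG or its reverse complement CCGCCC (the GC box) in capitals. The windows are chr1:62703067-62703366 on the plus strand for Nrp2, chr8:128358823-128359122 on the plus strand for Nrp1, chr10:94944796-94945095 on the minus strand for Plxnc1 and chr5:17574566-17574865 on the plus strand for Sema3c.
Nrp2: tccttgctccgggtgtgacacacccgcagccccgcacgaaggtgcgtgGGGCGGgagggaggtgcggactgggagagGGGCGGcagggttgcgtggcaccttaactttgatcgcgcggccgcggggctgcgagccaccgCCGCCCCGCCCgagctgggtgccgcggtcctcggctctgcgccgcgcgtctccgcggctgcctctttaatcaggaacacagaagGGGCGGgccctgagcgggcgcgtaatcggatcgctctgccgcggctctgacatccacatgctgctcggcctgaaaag
Nrp1: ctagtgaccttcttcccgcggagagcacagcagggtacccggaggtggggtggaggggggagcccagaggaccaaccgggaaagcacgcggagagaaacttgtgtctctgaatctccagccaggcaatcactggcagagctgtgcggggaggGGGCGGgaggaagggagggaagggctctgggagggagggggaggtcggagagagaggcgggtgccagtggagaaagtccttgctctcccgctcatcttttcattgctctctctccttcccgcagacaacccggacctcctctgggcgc
Plxnc1: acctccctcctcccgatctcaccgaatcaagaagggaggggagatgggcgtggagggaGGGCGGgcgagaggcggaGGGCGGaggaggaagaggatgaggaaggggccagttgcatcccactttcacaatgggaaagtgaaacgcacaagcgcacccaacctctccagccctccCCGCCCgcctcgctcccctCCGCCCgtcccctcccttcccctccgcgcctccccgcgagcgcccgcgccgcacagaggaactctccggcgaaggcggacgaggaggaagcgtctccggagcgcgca
Sema3c: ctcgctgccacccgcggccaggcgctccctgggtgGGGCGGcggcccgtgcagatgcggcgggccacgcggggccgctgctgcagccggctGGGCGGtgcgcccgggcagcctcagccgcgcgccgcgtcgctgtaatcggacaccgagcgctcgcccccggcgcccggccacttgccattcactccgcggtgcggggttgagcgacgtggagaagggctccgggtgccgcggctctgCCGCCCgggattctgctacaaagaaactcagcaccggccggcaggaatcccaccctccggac

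The Nrp2 window held 5 GC box matches, that of Plxnc1 held 4, that of Sema3c 3 and that of Nrp1 1, with overlapping matches counted separately. CG dinucleotides numbered 37 in Nrp2, 14 in Nrp1, 30 in Plxnc1 and 42 in Sema3c, against a median of 7 over all 32851 RefSeq promoter windows of 300 bases. The table held 37 windows for 26 of the 31 members. Over these the median was 15 CG dinucleotides and 63.7% G plus C, against 7 and 52.7% over all windows. The motif shares that follow are not adjusted for this composition. A GC box was present in 27 of these 37 windows (73.0%), against 35.7% of all windows. TATAAA, searched on both strands, was in 0 of the 37 member windows and in 13.6% of all. CCAAT was in 18.9% of member windows and 37.4% of all, and CANNTG (the E box) in 56.8% and 72.3%. A letter match is a description of the window and no evidence of a bound factor, and several windows of 1 gene can overlap. Plxna1, Plxna4, Sema3b, Sema3f and Sema6a had no entry.

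Of the 31 members, 27 passed the expression filter, a mean over the 4 arrays of at least 7.11 on the log2 scale, and 11013 of all 19938 genes did. The members below it were Sema3b, Sema3d and Sema3g, which encode secreted semaphorins, and Plxnb3, a plexin of the B subfamily. These 4 read under 7.11 in every array, so no member passed or failed through 1 group alone. All values are expression values on the authors' log2 scale, and levels of different genes are not set against each other because probe sets differ in affinity. Over kept genes the array medians were 8.57 in hippocampus after ethanol, 8.67 in hippocampus after PBS, 8.66 in forebrain after ethanol and 8.68 in forebrain after PBS. Markers of hippocampal fields, of which 9 of 9 passed the filter, went both ways: in hippocampus 2 were higher and 7 lower than in forebrain after ethanol (median -0.03), and 4 were higher and 5 lower after PBS (median -0.05). Among them, and picked after their values were seen, Zbtb20, a transcription factor gene of hippocampal pyramidal neurons, was higher in hippocampus by 0.23 after ethanol and 0.35 after PBS. Prox1, the transcription factor gene of dentate granule cells, differed by -0.33 after ethanol and -0.16 after PBS, and Cpne4 by -0.03 and -0.59. The list does not settle the hippocampus label either way, and the names are used as the labels give them.

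**Figure D1:**
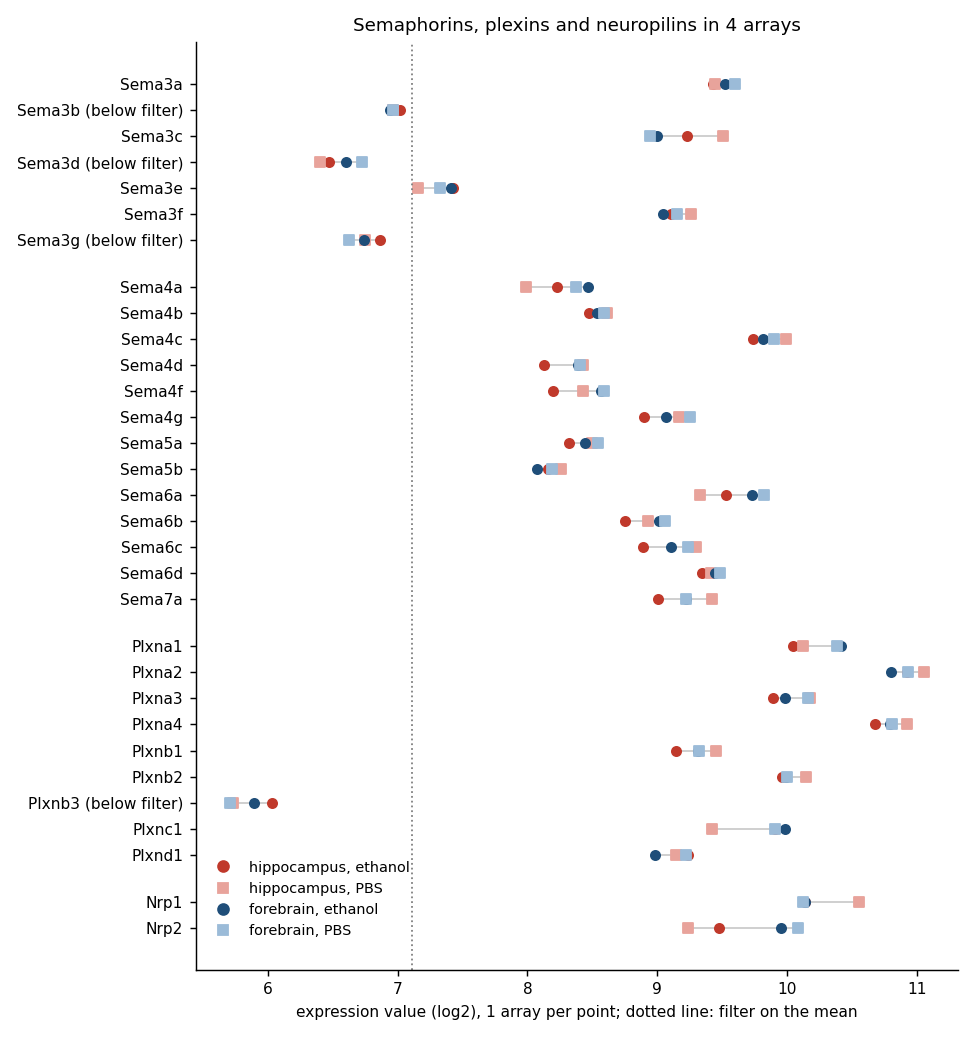
Expression values (log2, horizontal axis) of all 31 members, 1 row each, with 1 point per array coloured by tissue and treatment and a dotted line at the filter of 7.11. Most members span under 0.5 over the 4 arrays, Nrp2 has the widest span at 0.85, and the 4 members below the filter lie left of the line in every array.

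The first comparison asked whether the family differed after maternal ethanol in hippocampus. No member differed by 1.5-fold, a log2 difference of 0.58. The count was 0 of 27 higher, where 0.49% of all kept genes were, and 0 of 27 lower, where 0.427% were. At a log2 difference of 0.32, 1 member was higher, beside 3.17% of all kept genes, and 3 were lower, beside 5.95%. The higher member was Plxnc1, and the lower ones were Nrp1, Sema7a and Sema6c. In all, 6 members were higher and 21 lower, with a median difference of -0.17, while over all kept genes 3380 were higher, 7632 were lower and the median was -0.08. Centring each array on its median turned the split of the members into 10 higher and 17 lower with a median of -0.08, against 0.02 over all kept genes. After quantile normalization the members' median was -0.10, against -0.02.

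Cell type markers differed in the same comparison, in which 7632 of 11013 kept genes were lower and the median was -0.08. Striatal projection neuron markers were higher after ethanol for 12 of 12 kept genes (14 listed, median 0.44), with a mean of 9.63 after ethanol and 9.20 after PBS. Upper-layer and pallial neuron markers were lower for 9 of 9 (10 listed, median -0.38), with a mean of 9.20 after ethanol and 9.63 after PBS. Choroid plexus markers were lower for 6 of 6 (9 listed, median -0.29), with a mean of 8.28 after ethanol and 8.60 after PBS. Astrocyte markers were higher for 6 of 6 (7 listed, median 0.35), with a mean of 9.18 after ethanol and 8.86 after PBS. Deep-layer neuron markers were higher for 2 and lower for 6. The higher ones, Foxp2 (0.53) and Bcl11b (0.30), are also in the striatal list. The lower ones ran from -0.91 (Ntsr1) to -0.18 (Tle4). Other lists went both ways. Endothelial markers were higher for 3 and lower for 6, and hippocampal fields for 4 and 5. Radial glia and progenitor markers were higher for 4 and lower for 6, and Cajal-Retzius for 2 and 2. GABAergic interneuron markers were higher for 10 and lower for 2, meningeal fibroblast for 8 and 2, and thalamic for 6 and 2. Calb2 (0.87) counts in both the GABAergic and the thalamic list. Oligodendrocyte lineage markers were higher for 4 and lower for 3. Microglial markers were higher for 3 of 3 kept genes (6 listed), by at most 0.07. The part of any of these cells in the members' values was not tested.

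Among the receptors, Plxnc1, the plexin that binds the membrane-anchored semaphorin of Sema7a, stood highest. It read 9.91 after ethanol and 9.42 after PBS in hippocampus, against 9.99 after ethanol and 9.91 after PBS in forebrain. The hippocampus PBS array was the low one, and the hippocampus ethanol array lay with both forebrain arrays. The ethanol difference in hippocampus was 0.48 (1.40-fold), rank 117 from the top of 11013 genes. Nrp1, the neuropilin that pairs with A-type plexins to receive the Sema3a protein and also binds vascular growth factor, had the lowest difference at -0.42. Its values were 10.14 after ethanol and 10.56 after PBS in hippocampus, against 10.14 after ethanol and 10.13 after PBS in forebrain. Again 3 arrays lay together, here within 0.015, and the hippocampus PBS array alone was high. Whether ethanol or a departure of the PBS array alone underlies either value cannot be told apart.

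Nrp2, the neuropilin that receives the Sema3f protein, differed the other way from Nrp1. It read 9.48 after ethanol and 9.24 after PBS in hippocampus, a difference of 0.24, against 9.96 after ethanol and 10.09 after PBS in forebrain, a difference of -0.13. Both hippocampus arrays of Nrp2 were below both forebrain arrays, and the share of all kept genes with this order was not counted. Plexins of the A subfamily, the usual partners of neuropilins, were lower in hippocampus after ethanol on the authors' scale. Plxna3 differed by -0.29, Plxna4 by -0.24, Plxna2 by -0.13 and Plxna1 by -0.08, of which Plxna1 changed sign when arrays were centred. The B-type plexin genes Plxnb1, whose product receives the Sema4d protein, and Plxnb2, whose product receives class 4 semaphorins, differed by -0.31 and -0.18. Plxnd1, a plexin of endothelial cells and neurons that binds the Sema3e protein directly, differed by 0.09.

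Among the ligands, Sema7a, which encodes a lipid-anchored semaphorin that promotes axon outgrowth, had the lowest difference after ethanol in hippocampus. Its values were 9.01 after ethanol and 9.42 after PBS, against 9.22 in each forebrain array. The hippocampus arrays thus lay on either side of forebrain, ethanol below and PBS above, with a difference of -0.41. Sema6c, a transmembrane semaphorin gene, read 8.89 after ethanol and 9.30 after PBS in hippocampus, against 9.11 after ethanol and 9.24 after PBS in forebrain. Here the ethanol array of each tissue was below its PBS array, by 0.40 in hippocampus and 0.13 in forebrain. Of 13 membrane-bound semaphorins, 11 were lower and 2 higher, with a median of -0.18. The higher members of this group were Sema4a, a class 4 semaphorin known from immune cells and the retina, and Sema6a, whose product binds Plxna2 and Plxna4 and positions axons and cell bodies.

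Of the secreted semaphorins 4 of 7 passed the filter, and their median of -0.08 was close to that of all kept genes. Sema3e, whose product acts through Plxnd1, was the highest at 0.27. It read 7.43 after ethanol and 7.16 after PBS in hippocampus, against 7.41 after ethanol and 7.32 after PBS in forebrain, close to the filter value in each array. Sema3c, which encodes an attractant of cortical axons that binds either neuropilin, was the lowest at -0.27. Sema3f, a repellent of hippocampal and other axons, differed by -0.16, and Sema3a, the classical repellent of cortical and sensory axons, by -0.01. Sema3a changed sign when arrays were centred, as did Sema5b and Sema6d among membrane-bound members.

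**Figure D2:**
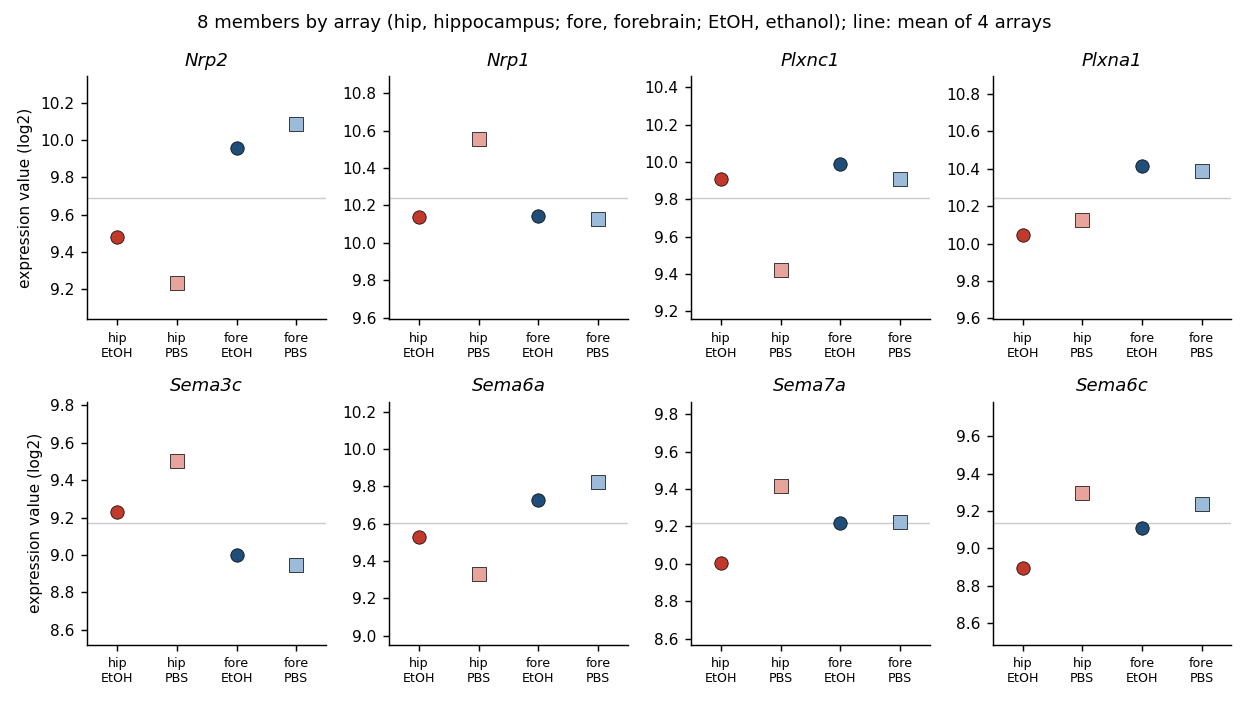
Expression values (log2, vertical axis; each panel spans the same 1.3 log2 units) of 8 members in the hippocampus ethanol, hippocampus PBS, forebrain ethanol and forebrain PBS arrays, 1 point per array, with a grey line at the mean of the 4. The hippocampus PBS array stands alone for Nrp1 (10.56) and Plxnc1 (9.42), whereas for Nrp2 and Plxna1 both hippocampus arrays lie below both forebrain arrays, and for Sema3c above them. How many of all kept genes have such an order was not counted.

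In forebrain the ethanol differences of the family were smaller. No member was 1.5-fold apart, with 0 of 27 higher beside 0.0454% of all kept genes and 0 of 27 lower beside 0.0272%. At a log2 difference of 0.32 the counts were also 0 and 0, beside 0.336% and 0.191%. The split was 6 higher and 21 lower, with a median of -0.04 against -0.01 over all kept genes, and 11 higher and 16 lower with centred arrays. Plxnd1 had the lowest difference at -0.24. It read 8.98 after ethanol and 9.22 after PBS in forebrain, and 9.24 after ethanol and 9.14 after PBS in hippocampus, so the forebrain ethanol array was the low one. Among 9 kept endothelial markers, cells that express Plxnd1, 7 were lower in the same comparison, with a median of -0.08. Over all kept genes 5927 of 11013 were lower (median -0.01). The markers' mean was 8.35 after ethanol and 8.44 after PBS in forebrain. In hippocampus 6 of the 9 were lower after ethanol (median -0.09), close to all kept genes, of which 7632 of 11013 were (median -0.08). Plxnd1 was higher there by 0.09. Between tissues after ethanol, 9 of 9 were lower in hippocampus, beside 7667 of 11013 kept genes (median -0.06), and Plxnd1 was higher by 0.26. The part of endothelial cells in the Plxnd1 value was not tested.

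Next lowest in forebrain were Sema4g and Plxna3. Sema4g, a class 4 semaphorin gene whose product binds Plxnb2, read 9.07 after ethanol and 9.25 after PBS in forebrain, and 8.90 after ethanol and 9.17 after PBS in hippocampus. Plxna3, known in mice as the plexin partner of Nrp2 in mossy fibre pruning, read 9.98 after ethanol and 10.16 after PBS in forebrain, and 9.89 after ethanol and 10.18 after PBS in hippocampus. For both genes each ethanol array was below each PBS array, an order whose share among all kept genes was not counted. The highest forebrain differences were small: Sema4a at 0.09, Sema3e at 0.09 and Plxnc1 at 0.08.

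**Figure D3:**
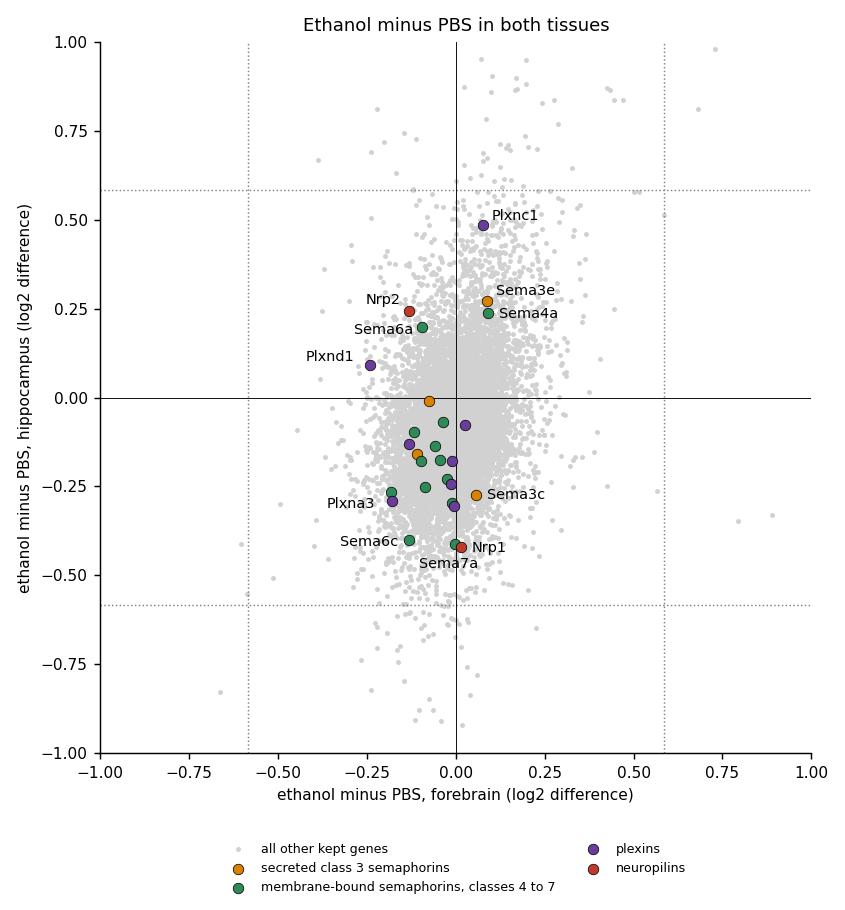
Ethanol minus PBS (log2 difference) in forebrain (horizontal axis) against hippocampus (vertical axis) for the 27 kept members, coloured by class, over all other kept genes in grey; 7 genes lie outside the axes and dotted lines mark 1.5-fold. Members spread from -0.42 to 0.48 in hippocampus and from -0.24 to 0.09 in forebrain, and none crosses a dotted line.

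Over both tissues, ethanol was tested with limma, with tissue as a second term, on all 11013 kept genes. At a Benjamini-Hochberg adjusted p of 0.05, limma called 0 of 27 members higher and 0 of 27 lower, beside 0% of all kept genes in each direction, and the lowest adjusted p of a member was 0.510. At an unadjusted p of 0.05, 1 member was higher, beside 3.41% of all kept genes, and 5 were lower, beside 6.36%. The lower ones were Plxna3 at -0.24 (SE 0.064), Sema6c at -0.27 (SE 0.087), Sema4g at -0.22 (SE 0.074), Plxna2 at -0.13 (SE 0.050) and Sema4c at -0.17 (SE 0.070), and the higher one was Plxnc1 at 0.28 (SE 0.098). Plxna2, a plexin gene whose product binds class 6 semaphorins, had nearly the same difference in each tissue. It read 10.92 after ethanol and 11.05 after PBS in hippocampus, and 10.80 after ethanol and 10.93 after PBS in forebrain. On the authors' scale, hippocampus and forebrain shared the sign of the ethanol difference in 21 of 27 members (77.8%) and in 61.4% of all kept genes. With centred arrays the sign turned for 4 members in hippocampus and 5 in forebrain, so this sharing depends on the scaling. The comparisons share no array but may share litters. The fit has 1 residual degree of freedom, its standard errors are moderated by the variance trend over all kept genes, and the arrays of a treatment are not repeats.

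No member was 1.5-fold apart after ethanol in 1 tissue with the opposite sign in the other. Smaller opposed values were seen for Nrp1, at -0.42 in hippocampus and 0.01 in forebrain, for Nrp2, at 0.24 and -0.13, and for Sema3c, at -0.27 and 0.06. Sema6a, at 0.20 in hippocampus and -0.09 in forebrain, and Plxnd1, at 0.09 and -0.24, were further examples. The forebrain value of Nrp1 was very small, so its sign carries little. Without opposite signs, Sema7a (-0.41 in hippocampus and -0.0030 in forebrain) and Plxnc1 (0.48 and 0.08) had gaps of -0.41 and 0.41 between the tissues. These were wider than that of Nrp2, 0.37. With 1 array per group the difference between the tissues' ethanol effects was not tested.

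The comparison of tissues asked how the family differs between the dissected regions. After ethanol, 0 of 27 members were 1.5-fold higher in hippocampus than in forebrain, beside 0.154% of all kept genes, and 0 of 27 were 1.5-fold lower, beside 0.536%. At a log2 difference of 0.32, 0 were higher, beside 1.2%, and 3 were lower, beside 5.48%: Nrp2, Sema4f and Plxna1. After PBS, 0 of 27 were 1.5-fold higher, beside 0.0908%, and 1 was 1.5-fold lower, beside 1.19%, namely Nrp2. At 2-fold, 0 of 27 were lower, beside 0.254%. At 0.32 or more on the log2 scale, Sema3c and Nrp1 were higher, beside 1.53% of all kept genes, and Nrp2, Sema6a, Plxnc1 and Sema4a were lower, beside 4.57%. The PBS comparison shares its hippocampus array with the ethanol comparison in hippocampus, and Plxnc1 and Nrp1, which passed 0.32 in both, enter both through the same reading.

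Nrp2 had the widest difference of the family between tissues. It was lower in hippocampus by 0.48 after ethanol (1.39-fold) and by 0.85 after PBS (1.80-fold), and ranked 138 and 58 from the bottom of 11013 genes. The tissue term of limma was -0.66 (SE 0.094, Benjamini-Hochberg adjusted p = 0.0370), the only member called at 0.05, beside 1.02% of all kept genes called lower and 0.109% called higher. The call was lost without a filter (adjusted p = 0.0624), with centred arrays (adjusted p = 0.0547) and without a trend in limma's variance (adjusted p = 0.0665), and over all alternatives the adjusted p ran from 0.00487 to 0.0665. Meningeal fibroblast markers moved the same way: 10 of 10 kept (11 listed) were lower in hippocampus in each treatment. Their mean was 7.99 in hippocampus and 8.66 in forebrain after ethanol, and 7.69 in hippocampus and 8.75 in forebrain after PBS. Endothelial markers were lower in hippocampus for 9 of 9 kept genes (10 listed) in each treatment, with medians of -0.25 after ethanol and -0.22 after PBS. Thalamic markers were lower for 8 of 8 after ethanol (median -0.20) and for 7 of 8 after PBS (median -0.33). The lowest of them, Prox1 after ethanol (-0.33) and Calb2 after PBS (-0.97), are also in the hippocampal field and GABAergic lists, respectively. GABAergic interneuron markers went both ways. Of 12 kept (14 listed), 8 were higher in hippocampus after ethanol (median 0.15) and 8 were lower after PBS (median -0.10). Over all kept genes, 7667 of 11013 were lower in hippocampus after ethanol and 5236 after PBS. The part of these cells in the Nrp2 value was not tested. In such bulk tissue, fewer cells of a type and less RNA per cell cannot be told apart.

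Plxna1, an A-type plexin gene expressed by many projection neurons, was also lower in both hippocampus arrays. It read 10.05 after ethanol and 10.13 after PBS in hippocampus, against 10.41 after ethanol and 10.39 after PBS in forebrain. By limma its tissue difference was -0.31 (SE 0.062) with a Benjamini-Hochberg adjusted p of 0.0701. It passed the threshold with the 75th percentile filter (adjusted p = 0.0273) and after quantile normalization (adjusted p = 0.0106), and over the alternatives the adjusted p ran from 0.0106 to 0.147. Sema3c was the member with the highest value in hippocampus relative to forebrain over both treatments. It read 9.23 after ethanol and 9.50 after PBS in hippocampus, against 9.001 after ethanol and 8.94 after PBS in forebrain. After PBS the difference of 0.56 ranked 14 from the top of all kept genes. The limma tissue difference was 0.39 (SE 0.093, adjusted p = 0.115), and it passed only after quantile normalization (adjusted p = 0.0131), with a range of 0.0131 to 0.177 over the alternatives.

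Without adjustment, 2 members were higher in hippocampus over both treatments at a limma p of 0.05, beside 3.27% of all kept genes, and 7 were lower, beside 11.9%. Sema6a, Sema4a and Sema4f were among the lower ones in each treatment without passing the adjusted test. Sema6a read 9.53 after ethanol and 9.33 after PBS in hippocampus, against 9.73 after ethanol and 9.82 after PBS in forebrain. Sema4a read 8.23 after ethanol and 7.99 after PBS in hippocampus, against 8.47 after ethanol and 8.38 after PBS in forebrain. Sema4f, a neuronal class 4 semaphorin gene, read 8.20 after ethanol and 8.42 after PBS in hippocampus, against 8.56 after ethanol and 8.59 after PBS in forebrain. For these 3 genes limma's adjusted p was 0.120, 0.145 and 0.211. Both hippocampus arrays were below both forebrain arrays for each, an order whose share among all kept genes was not counted. Between hippocampus and forebrain Nrp1 differed by -0.01 after ethanol and 0.43 after PBS, and Sema7a by -0.21 after ethanol and 0.20 after PBS. Nrp1 changed sign after ethanol when arrays were centred.

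Marker lists also differed between hippocampus and forebrain. Upper-layer and pallial neuron markers, cortical cells that use Nrp1 and A-type plexins, were lower in hippocampus than in forebrain after ethanol for 8 of 9 kept genes (median -0.06), close to all kept genes, of which 7667 of 11013 were lower with a median of -0.06. After PBS they were higher for 9 of 9 (median 0.27), where 5774 of 11013 kept genes were (median 0.01). Their mean in forebrain was 9.35 in each treatment. Choroid plexus markers were higher after PBS for 6 of 6 kept genes (median 0.49). Striatal projection neuron markers were higher in hippocampus after ethanol for 12 of 12 kept genes (median 0.57), and for 9 of 12 after PBS (median 0.14), with means of 9.01 and 9.05 in forebrain. The array that stood apart was thus hippocampus after PBS for the upper-layer and choroid plexus lists and hippocampus after ethanol for the striatal one. The part of these cells in the values of Nrp1, Plxnc1 and Sema3c was not tested.

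**Figure D4:**
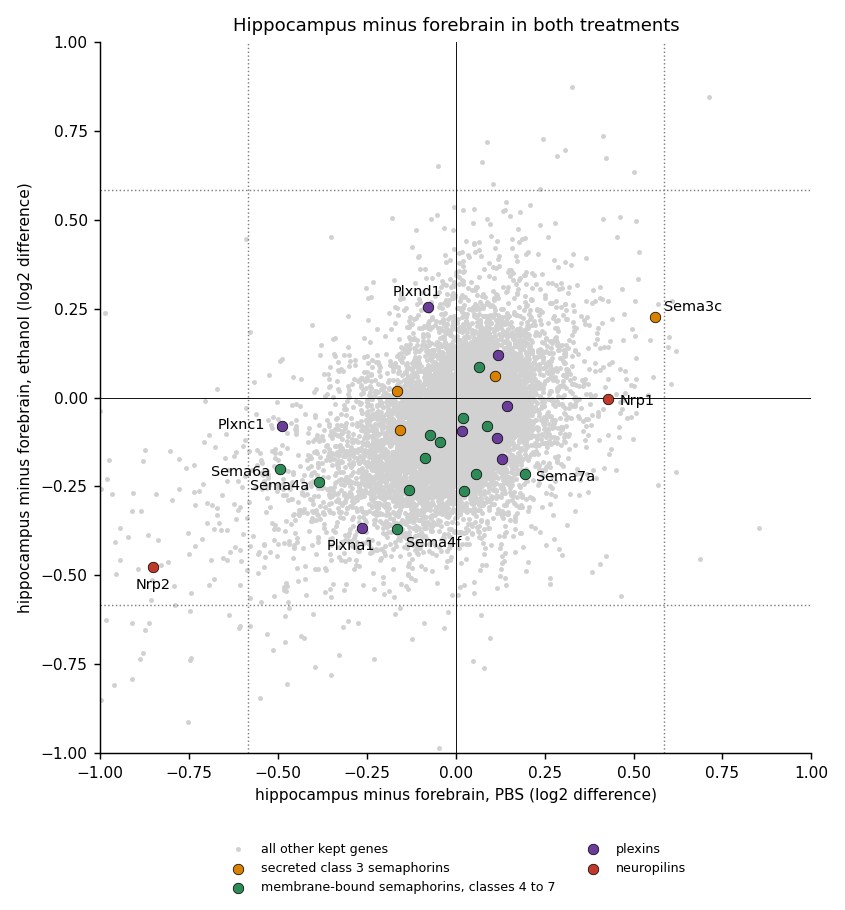
Hippocampus minus forebrain (log2 difference) after PBS (horizontal axis) against after ethanol (vertical axis) for the 27 kept members, coloured by class, over all other kept genes in grey; 32 genes lie outside the axes and dotted lines mark 1.5-fold. Nrp2 lies at -0.48 after ethanol and -0.85 after PBS, Sema3c at 0.23 after ethanol and 0.56 after PBS, and Nrp1 at -0.01 after ethanol and 0.43 after PBS.

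Across the family the hippocampus arrays varied most. The array farthest from the median of the other 3 was hippocampus after ethanol for 12 of 27 members, hippocampus after PBS for 11, forebrain after ethanol for 3 and forebrain after PBS for 1. Over all kept genes these shares were 40.2%, 33.3%, 14.2% and 12.3%, against 44.4%, 40.7%, 11.1% and 3.70% in the family. Where the hippocampus ethanol array was farthest it was below the others for all 12 members, as for 3629 of 4432 kept genes. The members for which the hippocampus PBS array was farthest lay above the others in 6 cases and below in 5. The median over kept members was 9.23 in hippocampus after ethanol and 9.33 after PBS, against 9.22 in forebrain after ethanol and 9.25 after PBS.

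The other 12 kept members are given by their ranges. Plxna4, Plxnb1, Plxnb2, Sema3a, Sema3f, Sema4b, Sema4c, Sema4d, Sema5a, Sema5b, Sema6b and Sema6d spanned 0.14 to 0.31 over the 4 arrays, with Plxnb1 and Sema6b the widest. Their ethanol differences ran from -0.31 to -0.01 in hippocampus and from -0.12 to -0.0038 in forebrain, so on the authors' scale all 12 were lower in each, although the sign of Sema3a, Sema5b and Sema6d in hippocampus and of Plxna4, Plxnb1, Plxnb2 and Sema4d in forebrain turned under at least 1 other scaling. Sema4d, a transmembrane ligand known from immune cells and oligodendrocytes, had a second probe set, with a hippocampus difference of -0.10 where the one used gave -0.30. The probe sets of Sema6b held identical values and count as 1 measurement. Plxnb1, at -0.31 in hippocampus after ethanol, ranked 773 from the lowest of 11013 genes.

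Set by ligand and receptor, known partners did not share 1 direction after ethanol in hippocampus. Sema7a differed by -0.41 and its receptor Plxnc1 by 0.48. The gene of the secreted ligand Sema3f differed by -0.16, its binding receptor Nrp2 by 0.24 and the signalling partner Plxna3 by -0.29. Sema3a stood at -0.01, while Nrp1 was at -0.42 and Plxna4 at -0.24. Sema3e (0.27) and Plxnd1 (0.09) were both higher, and Sema4d (-0.30) and Plxnb1 (-0.31) both lower. The other probe set of Sema4d gave -0.10. These are values of single arrays without a test, on a scale where the median of all kept genes was -0.08. Sema3a became 0.09 with centred arrays and 0.07 after quantile normalization, and the other members named here kept their sign under both.

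The family was then set beside genes through which it acts. Co-receptors and partner receptors had 15 of 17 genes kept, with 4 higher and 11 lower after ethanol in hippocampus and a median of -0.06, close to the split (7632 of 11013 lower) and the median (-0.08) of all kept genes. Of the 15, 1 was 1.5-fold lower, beside 0.427% of all kept genes, and this was Met, the hepatocyte growth factor receptor that B-type plexins bind. It read 7.93 after ethanol and 8.85 after PBS in hippocampus, against 8.92 after ethanol and 8.90 after PBS in forebrain, so here the hippocampus ethanol array stood apart. Cntn2, an axonal adhesion molecule that takes part in semaphorin receptor traffic, differed by -0.57, Trem2, a myeloid receptor, by 0.17, Ptk7, a pseudokinase that associates with plexins, by -0.17, the integrin gene Itgb1, a receptor subunit for the Sema7a protein, by -0.13 and Gipc1, an adaptor of neuropilins, by -0.12. The neuronal adhesion co-receptor L1cam differed by 0.03.

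Of 34 cytoplasmic signalling genes 31 were kept, with 11 higher and 20 lower in hippocampus after ethanol and a median of -0.05, again near the split and median of all kept genes. At 1.5-fold, 0 of 31 were higher, beside 0.49%, and 0 of 31 lower, beside 0.427%. Mical2, an oxidoreductase of the family that disassembles actin below plexins, had the lowest difference at -0.41, and Rnd3, a small GTPase gene, the highest at 0.38. Mical2 read 8.24 after ethanol and 8.65 after PBS in hippocampus, against 8.44 after ethanol and 8.41 after PBS in forebrain, with the hippocampus arrays on either side. Rnd3 read 10.18 after ethanol and 9.79 after PBS in hippocampus, against 9.76 after ethanol and 9.80 after PBS in forebrain, the hippocampus ethanol array alone being high. The cofilin kinase gene Limk1 differed by -0.22, Micall1, a Mical-related gene of membrane traffic, by -0.21, the collapsin response mediator gene Dpysl4 by -0.21 and Cfl1, which encodes the actin-severing protein cofilin, by 0.17. In forebrain, 0 co-receptor genes and 0 cytoplasmic genes were apart by 0.32 or more on the log2 scale after ethanol.

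**Figure D5:**
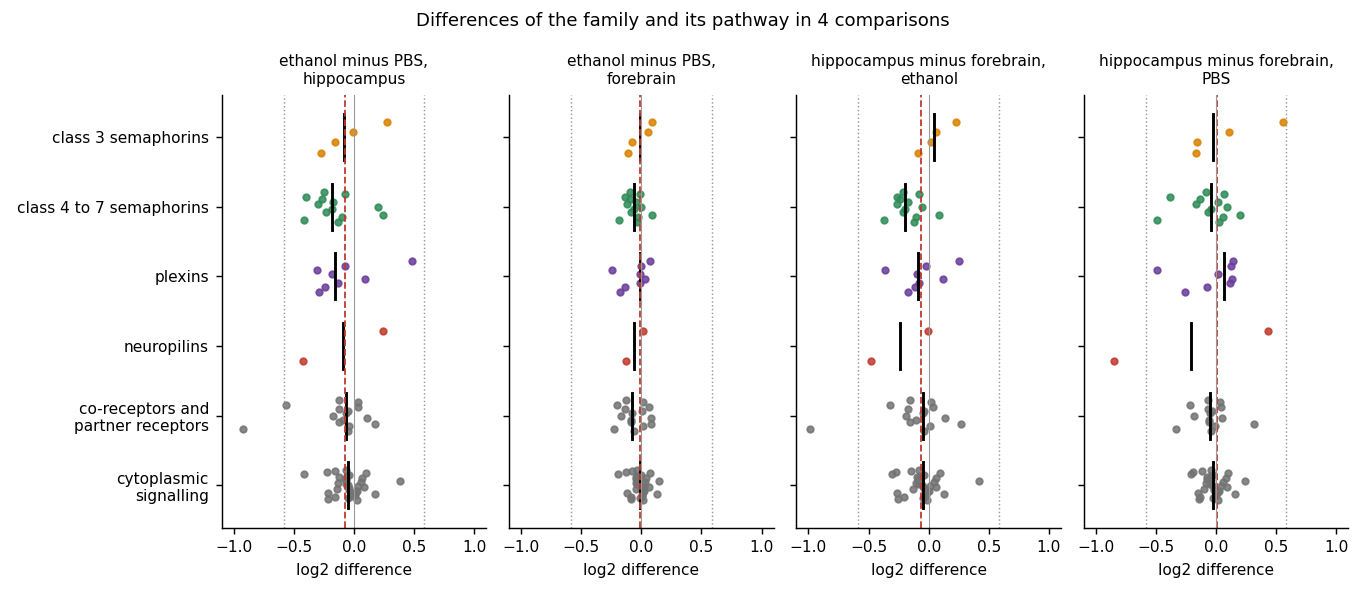
Log2 differences (horizontal axis) of kept genes in the 4 classes of the family and the 2 pathway lists, in the 4 comparisons between arrays, 1 point per gene; black bars are list medians, the red dashed line is the median of all kept genes and dotted lines mark 1.5-fold. The bar of the 13 membrane-bound semaphorins lies at -0.18 after ethanol in hippocampus and -0.20 for hippocampus minus forebrain after ethanol, and Met is the lowest point at -0.92.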

How the data were processed

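The authors' deposited values were used, 35557 probe sets on 4 arrays. The log2 values were made by the authors with MAS5, per the submitters' processing notes. Their log2 scale was read from their range (1.58 to 13.96), and the MAS5 version, background correction and scaling are not stated here. Per the labels' protocols, 6 ug of total RNA was labelled for each array. The planned pseudocount for linear values did not apply.

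Probe sets with 1 gene symbol in the platform annotation (21789, against 1621 with several and 12147 with none) were named, and all 31 members were found by identifier in RefSeq (GRCm38.p6) with 0 symbols changed. The probe set with the highest mean represented a gene, and genes were kept from the median of all probe set means (7.11). Differences between 2 arrays were counted at 1.5-fold, without a test. Over all 4 arrays, limma 3.58.1 under R 4.3.3 took treatment and tissue as additive terms, with a variance trend and Benjamini-Hochberg adjustment over all kept genes at 0.05. These p-values rest on the treatment-by-tissue difference among the 4 arrays, which serves as the error, and on that trend. That difference may be technical or an ethanol effect that differs between tissues. The scripts were tested on simulated data. Members and lists were chosen with earlier results of these data known. All 4 arrays are given for members 1.5-fold apart and for the 3 highest and 3 lowest members of each comparison. Up to 6 genes are named per pathway list by their hippocampus ethanol difference, and L1cam was added outside this rule. Alternatives were the fold, the filter, array centring, quantile normalization, the mean of a gene's probe sets and no trend. Tables and figures were made in Python 3.11.15 (matplotlib 3.10.9, numpy 2.4.6, pandas 2.3.3).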

Additional observations from a re-analysis of the deposited data

How the results depend on the processing

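The family's median for ethanol in hippocampus, -0.17, was -0.08 with centred arrays and -0.10 after quantile normalization. For tissue after ethanol it was -0.11, against -0.02 with centred arrays and -0.06 after quantile normalization. For ethanol in forebrain it was -0.04, against -0.03 with centred arrays. For tissue after PBS it was 0.02, against -0.01 after quantile normalization and with the mean of a gene's probe sets. The 1.5-fold counts were unchanged under each filter, scaling and probe set rule tried. At a log2 difference of 0.32 the counts of members became 1 higher and 3 lower for ethanol in hippocampus, 3 lower for tissue after ethanol, and 2 higher and 4 lower for tissue after PBS. At 2-fold the last of these was 0. By limma, the tissue term called 0 members lower without a filter, with centred arrays and without a trend, and 2 lower with the 75th percentile filter and with quantile normalization, where 1 was also higher. The cause was not tested, beyond the number of genes in the fit, which was 19938 without a filter and 5549 with the 75th percentile. Over all genes that term called 12 higher and 112 lower, against 70 and 346 after quantile normalization, 4 and 33 without a filter, 23 and 90 under the stricter filter, 21 and 45 with centred arrays and 2 and 25 without a trend. For ethanol over both tissues, limma called 0 members in every alternative, with 0 and 0 genes called in the main setting, 12 higher and 2 lower after quantile normalization, 5 and 2 under the stricter filter and 1 and 1 with centred arrays. Centring raised the median of all kept genes by up to 0.099. No paired analysis was possible because each group has 1 array, beyond the limma fit itself, which compares ethanol with PBS within tissues. No array could be left out, since that leaves no residual degree of freedom.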

Other observations

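The members below the expression filter entered no comparison. Plxnb3, a B-type plexin gene known from oligodendrocytes and other glia, read 6.03 after ethanol and 5.73 after PBS in hippocampus, and 5.89 after ethanol and 5.71 after PBS in forebrain. Sema3d, a secreted semaphorin gene, read 6.47 after ethanol and 6.40 after PBS in hippocampus, against 6.60 after ethanol and 6.72 after PBS in forebrain. Sema3g, known from arterial endothelium, lay between 6.63 and 6.86 over the 4 arrays, and Sema3b between 6.94 and 7.02.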
